A study of Homo sapiens with 5 samples.

Results

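The genes described here encode the proteins with which a cell recognises foreign or misplaced RNA and DNA, and the adaptors and transcription factors directly behind them. They are DDX58, IFIH1, DHX58, MAVS, TLR3, MB21D1, TMEM173, EIF2AK2, IRF3 and IRF7, spelled as in the deposited table. The 10 genes were chosen by symbol among the 19797 protein-coding rows of a table of 60504 genes, and each was found once.

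RNA was sequenced from DAOY cells, an established human medulloblastoma line of the sonic hedgehog subgroup. Cells were transfected for 48 h with 20 nM siRNA, either a non-targeting control (si-NC, 2 libraries, called the controls below) or siRNA against the circular RNA circ_63706 (si-circ_63706, 3 libraries). All libraries came from 1 cell line and all cells received a lipid-delivered siRNA, so no untransfected sample was compared. The sources used here do not state which siRNA sequence against circ_63706 each library received, nor whether the libraries of a group came from separate cultures, so p-values measure the spread between these libraries, which may be technical. The table holds genes and gives no value for circ_63706 itself. The question asked of it here was how the sensing machinery differed between the 2 siRNAs.

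RIG-I (DDX58) and MDA5 (IFIH1) are cytosolic helicases that bind RNA with triphosphate ends and long double-stranded RNA, and LGP2 (DHX58) is a relative that lacks their signalling domains. Both helicases signal through MAVS on the outer mitochondrial membrane, TLR3 senses double-stranded RNA inside endosomes, and cGAS (MB21D1) answers cytosolic DNA with a cyclic dinucleotide that STING (TMEM173) binds. These routes meet at the transcription factors IRF3 and IRF7, which switch on interferon genes, and interferon in turn raises the transcription of many sensors through the factor ISGF3 and its binding motif, the interferon-stimulated response element. PKR (EIF2AK2) works apart from them, as a kinase that binds double-stranded RNA and halts translation.

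The 2 signalling RNA helicases, DDX58 and IFIH1, stood apart from most of the other members. DDX58 and IFIH1 were higher in every si-circ_63706 library than in either si-NC library, whereas MB21D1, TMEM173, TLR3, MAVS and DHX58 were lower in every one. Over all tested genes, 8.93% were higher and 55.2% lower without overlap between the groups, so 5 lower members of 10 is close to the general share. With TPM as deposited (transcript abundance per length, scaled to the same total in every library over all gene types), TMEM173, MB21D1 and TLR3 passed the test as lower and no member passed as higher. With the libraries centred on the typical gene, as described next, DDX58, IFIH1 and EIF2AK2 passed as higher and no member passed as lower.

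The scale matters because it moved for all genes. Protein-coding genes took 29.02% of TPM in each control, as against 25.2%, 26.2% and 26.9% in replicates 1, 2 and 3 of si-circ_63706. Over the 12710 genes tested, those with a mean of at least 1 TPM, the median log2 fold change was -0.16, with 4.16% of genes called higher and 35.4% called lower at an adjusted p under 0.05 (limma on log2(TPM + 1), Benjamini-Hochberg). Centring each library on its median log2 ratio moved that median to 0.00, with 13.1% called higher and 13.7% lower. All 10 members were tested. As deposited, 0 were called higher and 3 lower, and after centring 3 were called higher and 0 lower. Leaving out si-circ_63706 replicate 1, as deposited, gave 3 calls, 2 higher and 1 lower. Leaving out replicate 2 or 3 gave 1 call, lower. Of all 12710 genes, 4266, 3640 and 4645 were called in these fits, in order of replicate, and 5033 with all libraries. Leaving out si-NC replicate 1 or 2 leaves no spread between controls, and the members' median was then -0.06 or -0.15. With all 5 libraries it was -0.11 as deposited and 0.05 after centring. Each gene is therefore given on both scales, and a fold change here is on the log2(TPM + 1) scale, which understates the change of genes with few TPM. Without read counts the sequencing depth is unknown, and no counting interval can be given.

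**Figure D1:**
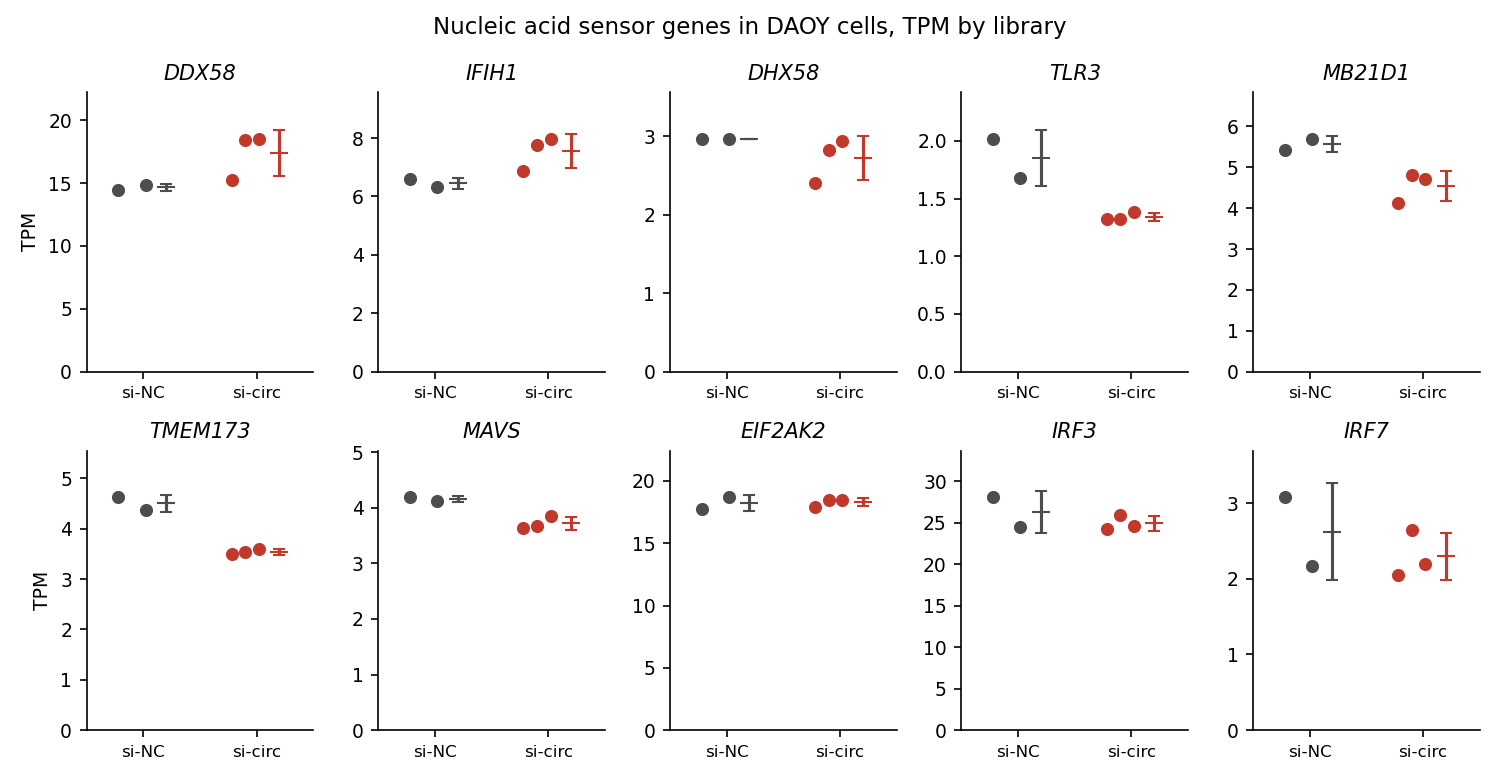
TPM of the 10 members in each library, with a separate axis from 0 for each gene. Points are libraries (grey si-NC, n = 2, and red si-circ_63706, n = 3) and the bars beside them are the mean and SD. DDX58 and IFIH1 lie higher in all si-circ_63706 libraries, and MB21D1, TMEM173, TLR3, MAVS and DHX58 lie lower in all of them.

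The stretches around the start sites of 4 members are shown because IFIH1 and EIF2AK2, which were called higher after centring, and TLR3, which was not, hold a motif there that IRF and ISGF3 factors are known to bind, and DDX58 holds a shorter-spaced form of it. RefSeq promoters (GRCh38.p14, 250 bases before the start and 50 from it on, of which the first 10 are printed) were found for 5 of the 10 members, and MAVS, the fifth, held no match. They are printed 5′ to 3′ on the strand of the gene, with capitals marking GAAANNGAAA, the core of the interferon-stimulated response element, on either strand, or, for DDX58, the shorter-spaced GAAANGAAA. The shorter-spaced form was added to the search after the DDX58 stretch had been seen. The printed stretches are chr9:32526187-32526446 (minus strand) for DDX58, chr2:162318675-162318934 (minus) for IFIH1, chr2:37156971-37157230 (minus) for EIF2AK2 and chr4:186068906-186069165 (plus) for TLR3.
DDX58: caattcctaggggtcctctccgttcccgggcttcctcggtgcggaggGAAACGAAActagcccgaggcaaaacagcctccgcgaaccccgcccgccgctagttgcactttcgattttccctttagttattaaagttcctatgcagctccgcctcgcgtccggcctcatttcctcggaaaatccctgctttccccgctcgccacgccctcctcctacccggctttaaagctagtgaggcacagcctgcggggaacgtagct
IFIH1: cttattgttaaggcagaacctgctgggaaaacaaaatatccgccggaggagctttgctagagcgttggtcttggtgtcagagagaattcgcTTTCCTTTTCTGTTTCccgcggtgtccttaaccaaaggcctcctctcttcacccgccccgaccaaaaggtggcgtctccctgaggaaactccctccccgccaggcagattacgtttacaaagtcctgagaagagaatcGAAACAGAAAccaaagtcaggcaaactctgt
EIF2AK2: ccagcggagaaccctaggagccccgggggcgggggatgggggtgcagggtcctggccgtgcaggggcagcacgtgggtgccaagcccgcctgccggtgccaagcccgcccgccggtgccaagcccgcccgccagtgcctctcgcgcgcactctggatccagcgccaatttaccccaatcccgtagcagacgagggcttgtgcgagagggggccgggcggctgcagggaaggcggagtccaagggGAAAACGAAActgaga
TLR3: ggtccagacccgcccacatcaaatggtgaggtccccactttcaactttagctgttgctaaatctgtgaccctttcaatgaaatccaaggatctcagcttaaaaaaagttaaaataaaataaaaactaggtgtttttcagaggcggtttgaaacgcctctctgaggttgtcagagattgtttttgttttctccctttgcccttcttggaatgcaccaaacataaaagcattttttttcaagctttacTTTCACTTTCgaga

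IFIH1 held 3 matches to the response element core, which began 159, 153 and 21 bases before the start site, and the first 2 of them overlap. EIF2AK2 and TLR3 held 1 match each, beginning 6 and 4 bases before the start site and running across it. DDX58 held no match to the core and 1 to the shorter-spaced form, 203 bases before the start. Among 35116 promoters of the same length, 3.57% held the core and 3.12% the shorter-spaced form. The core of an NF-kB site, GGGANNNNCC on either strand, was found in DDX58 and IFIH1 and in 25.6% of all promoters, and the STAT site core TTCNNNGAA in TLR3 and in 7.66%. TLR3, which holds the core, was lower in every si-circ_63706 library. A match describes letters in the window and no binding was measured.

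DDX58 (ENSG00000107201, chr9:32455705-32526324 on the minus strand of GRCh38) encodes RIG-I. It had 14.48 and 14.85 TPM in the controls and 15.27, 18.38 and 18.53 TPM after si-circ_63706. The groups did not overlap, but si-circ_63706 replicate 1 lay near the controls and the other 2 libraries well above them. The means were 14.7 ± 0.262 TPM (SD, n = 2) and 17.4 ± 1.84 TPM (SD, n = 3), or 119% of the control. The log2 fold change was 0.23 ± 0.0879 (SE, 95% interval 0.02 to 0.44) with an adjusted p of 0.0831 in limma as deposited. After centring it was 0.39 ± 0.0690 (0.22 to 0.55, adjusted p = 0.0119), so DDX58 rose relative to the typical gene.

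IFIH1 (ENSG00000115267, chr2:162267079-162318703, minus strand) encodes MDA5, which forms filaments along long double-stranded RNA. Its 6.58 and 6.32 TPM in the controls compared with 6.88, 7.77 and 7.98 TPM after si-circ_63706, again without overlap and again replicate 1 of si-circ_63706 was nearest the controls. The means were 6.45 ± 0.184 and 7.54 ± 0.584 TPM (SD, n = 2 and 3), 117% of the control. As deposited the log2 fold change was 0.20 ± 0.0722 (0.02 to 0.37, adjusted p = 0.0723, limma), and after centring it was 0.35 ± 0.0564 (0.22 to 0.49, adjusted p = 0.00855).

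These 2 calls turned on 1 library as well as on the scale. Without si-circ_63706 replicate 1, and with TPM as deposited, DDX58 (log2 fold change 0.31, adjusted p = 0.0104) and IFIH1 (0.25, adjusted p = 0.0282, limma) were called higher, against 4.48% of all genes called higher in that fit. TMEM173 was the member called lower there, against 29.1% of all genes. DDX58 and IFIH1 kept step with each other. The ratio of DDX58 to IFIH1 was 2.20 and 2.35 in the controls and 2.22, 2.37 and 2.32 after si-circ_63706, so the groups overlapped although both genes were higher.

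DHX58 (ENSG00000108771, chr17:42101404-42112733, minus strand) encodes LGP2, a modulator of the other 2 helicases. It had 2.97 TPM in either control and 2.41, 2.83 and 2.94 TPM after si-circ_63706. All 3 si-circ_63706 libraries were lower than the controls, replicate 3 only just. The log2 fold change was -0.09 (95% interval -0.29 to 0.11, adjusted p = 0.400, limma) as deposited and 0.06 (-0.10 to 0.23, adjusted p = 0.518) after centring, so its sign turned with the scale.

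A ratio of 2 genes within a library does not depend on how the library is scaled. DDX58 to DHX58 was 4.88 and 5 in the controls and 6.34, 6.49 and 6.30 after si-circ_63706, and IFIH1 to DHX58 was 2.22 and 2.13 against 2.85, 2.75 and 2.71. On these ratios the 3 si-circ_63706 libraries lay close together, replicate 1 included, and apart from the controls. DHX58 was itself lowest in replicate 1. DDX58 to TMEM173 was 3.13 and 3.39 in the controls and 4.38, 5.21 and 5.15 after si-circ_63706. DDX58 to EIF2AK2 was 0.815 and 0.794 against 0.851, 0.995 and 1.00. With TMEM173 or EIF2AK2 as the divisor, replicate 1 thus lay nearest the controls. The ratios were chosen after the values had been seen, so they are given without a test.

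MAVS (ENSG00000088888, chr20:3846799-3876123, plus strand) is the shared adaptor of RIG-I and MDA5. Its TPM were 4.19 and 4.12 in the controls and 3.64, 3.67 and 3.85 after si-circ_63706. The groups did not overlap, with the adaptor lower where its 2 receptors were higher. The log2 fold change of -0.13 (-0.27 to 0.02, adjusted p = 0.131, limma) became 0.03 (-0.10 to 0.16, adjusted p = 0.694) after centring. IFIH1 to MAVS was 1.57 and 1.53 in the controls and 1.89, 2.12 and 2.07 after si-circ_63706.

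TLR3 (ENSG00000164342, chr4:186069152-186088069, plus strand) senses double-stranded RNA, siRNA among it, in the endosome and at the cell surface. It was the lowest member, with 2.02 and 1.68 TPM in the controls and 1.32, 1.32 and 1.38 TPM after si-circ_63706. The si-circ_63706 libraries were nearly alike and all lower, and the controls differed from each other by more than the whole treated group did. The mean fell from 1.85 ± 0.240 to 1.34 ± 0.0346 TPM (SD, n = 2 and 3), 72.4% of the control, with a log2 fold change of -0.28 ± 0.0867 (-0.49 to -0.07, adjusted p = 0.0422, limma). The call did not hold after centring (-0.12, -0.33 to 0.09, adjusted p = 0.331), nor without any 1 of the 5 libraries (adjusted p from 0.0555 to 0.196).

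MB21D1 (ENSG00000164430, chr6:73413515-73452276, minus strand, named CGAS in the annotation) encodes the DNA sensor cGAS. It had 5.43 and 5.70 TPM in the controls and 4.13, 4.81 and 4.71 TPM after si-circ_63706. The groups did not overlap, and the lowest value was in si-circ_63706 replicate 1. The mean was 81.8% of the control and the log2 fold change -0.24 ± 0.0742 (-0.42 to -0.07, adjusted p = 0.0408, limma). After centring it was -0.09 (-0.23 to 0.06, adjusted p = 0.337), and without any 1 of the libraries the adjusted p lay between 0.0577 and 0.190. DDX43, whose exons overlap MB21D1 on the opposite strand, had at most 0.12 TPM.

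TMEM173 (ENSG00000184584, chr5:139475534-139482935, minus strand) encodes STING, the receptor of the cGAS product on the endoplasmic reticulum. It showed the lowest p-value of the members as deposited. TPM were 4.63 and 4.38 in the controls and 3.49, 3.53 and 3.60 after si-circ_63706, so both groups were tight and lay apart. The mean fell from 4.51 ± 0.177 to 3.54 ± 0.0557 TPM (SD, n = 2 and 3), 78.6% of the control, with a log2 fold change of -0.28 ± 0.0594 (-0.42 to -0.13, adjusted p = 0.0130, limma). After centring it was -0.12 (-0.26 to 0.02, adjusted p = 0.173). TMEM173 was also called without any 1 of the si-circ_63706 libraries, but not without si-NC replicate 1 (adjusted p = 0.0934) or si-NC replicate 2 (adjusted p = 0.0541).

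MB21D1 and TMEM173 also kept step. Their ratio was 1.17 and 1.301 in the controls and 1.18, 1.36 and 1.31 after si-circ_63706, and the groups overlapped. Summed, the pair had 10.06 and 10.08 TPM in the controls and 7.62, 8.34 and 8.31 TPM after si-circ_63706, while the 3 helicases had 24.03 and 24.14 TPM against 24.56, 28.98 and 29.45 TPM. The ratio of these sums was 2.39 in each control as against 3.22, 3.47 and 3.54 after si-circ_63706, that is, 2.39 ± 0.00437 (SD, n = 2) against 3.41 ± 0.169 (SD, n = 3). DDX58 made up most of the first sum, and DHX58, itself lower in every si-circ_63706 library, added at most 2.97 TPM. The ratio therefore follows DDX58 and IFIH1 against the pair, and after centring neither MB21D1 nor TMEM173 was called. All 10 members together summed to 89.21 and 85.37 TPM in the controls and 81.40, 89.36 and 88.23 TPM after si-circ_63706, so as deposited their total overlapped between the groups. Per 1000000 TPM of protein-coding genes alone the total was 307 and 294 in the controls and 323, 342 and 328 after si-circ_63706, without overlap, so this too turned on the scale.

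**Figure D2:**
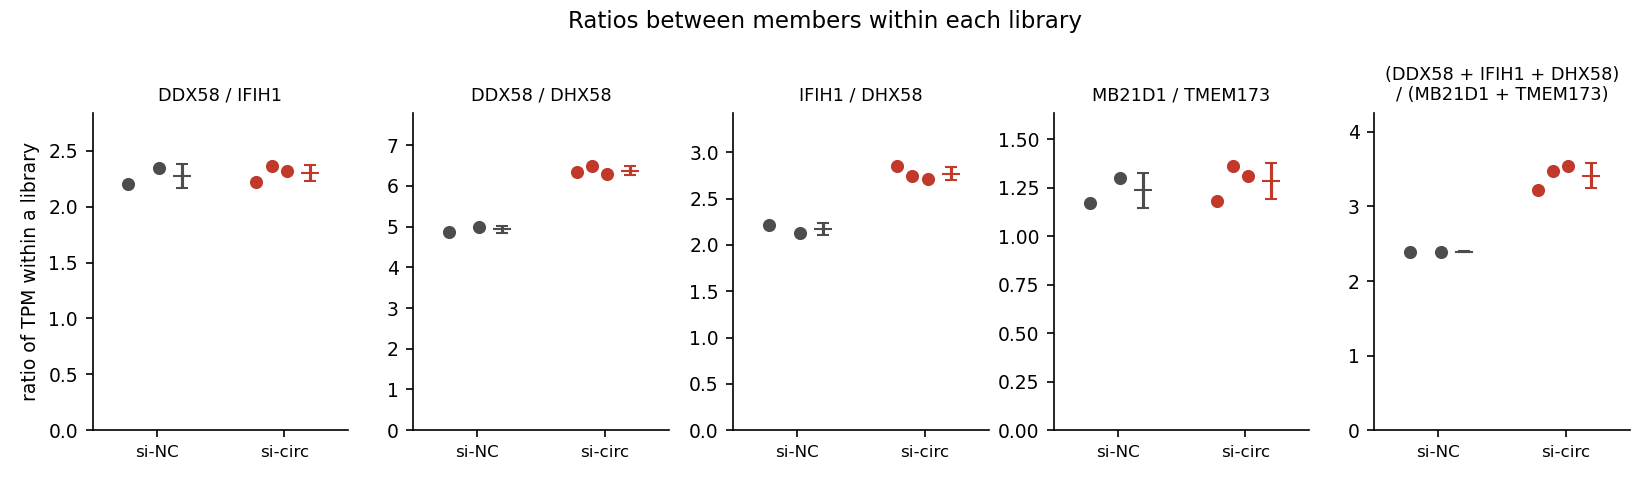
Ratios of TPM between members within each library, each axis from 0. Points are libraries (grey si-NC, red si-circ_63706) and the bars beside them the mean and SD. DDX58 to IFIH1 and MB21D1 to TMEM173 overlap between the groups, while DDX58 or IFIH1 to DHX58 and the 3 helicases to the cGAS-STING pair lie higher in all si-circ_63706 libraries.

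EIF2AK2 (ENSG00000055332, chr2:37099210-37157065, minus strand) encodes PKR. It had 17.76 and 18.70 TPM in the controls and 17.94, 18.47 and 18.47 TPM after si-circ_63706. Every si-circ_63706 value lay between the 2 controls. As deposited its log2 fold change was 0.01 (-0.11 to 0.12, adjusted p = 0.941, limma). Because the typical gene was lower, it was 0.16 ± 0.0399 (0.07 to 0.26, adjusted p = 0.0303) after centring. The exons of EIF2AK2 overlap on the opposite strand with GPATCH11, which had 9.63 to 10.38 TPM, and whether strand was used in counting is not given in the sources used here.

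IRF3 (ENSG00000126456, chr19:49659569-49665875, minus strand), the factor that is present before any signal and is activated by phosphorylation, was the most abundant member. It had 28.07 and 24.48 TPM in the controls and 24.27, 25.94 and 24.57 TPM after si-circ_63706. The groups overlapped, and the highest value was 1 of the controls. The log2 fold change was -0.07 (-0.24 to 0.09, adjusted p = 0.443, limma) as deposited and 0.09 (-0.08 to 0.26, adjusted p = 0.383) after centring. BCL2L12, which shares exonic sequence with IRF3 on the opposite strand, had 11.45 and 11.47 TPM in the controls and 7.64, 7.92 and 8.05 TPM after si-circ_63706, and its part in the IRF3 values was not tested.

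IRF7 (ENSG00000185507, chr11:612553-615999, minus strand), the factor that interferon itself induces and that widens the response, had 3.08 and 2.17 TPM in the controls and 2.05, 2.64 and 2.20 TPM after si-circ_63706. The 2 controls spanned the other libraries save 1. Its interval was the widest of the members, with a log2 fold change of -0.13 (-0.45 to 0.19, adjusted p = 0.461, limma) as deposited and 0.03 (-0.30 to 0.36, adjusted p = 0.890) after centring, so a change of either sign was not detectable at this spread.

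**Figure D3:**
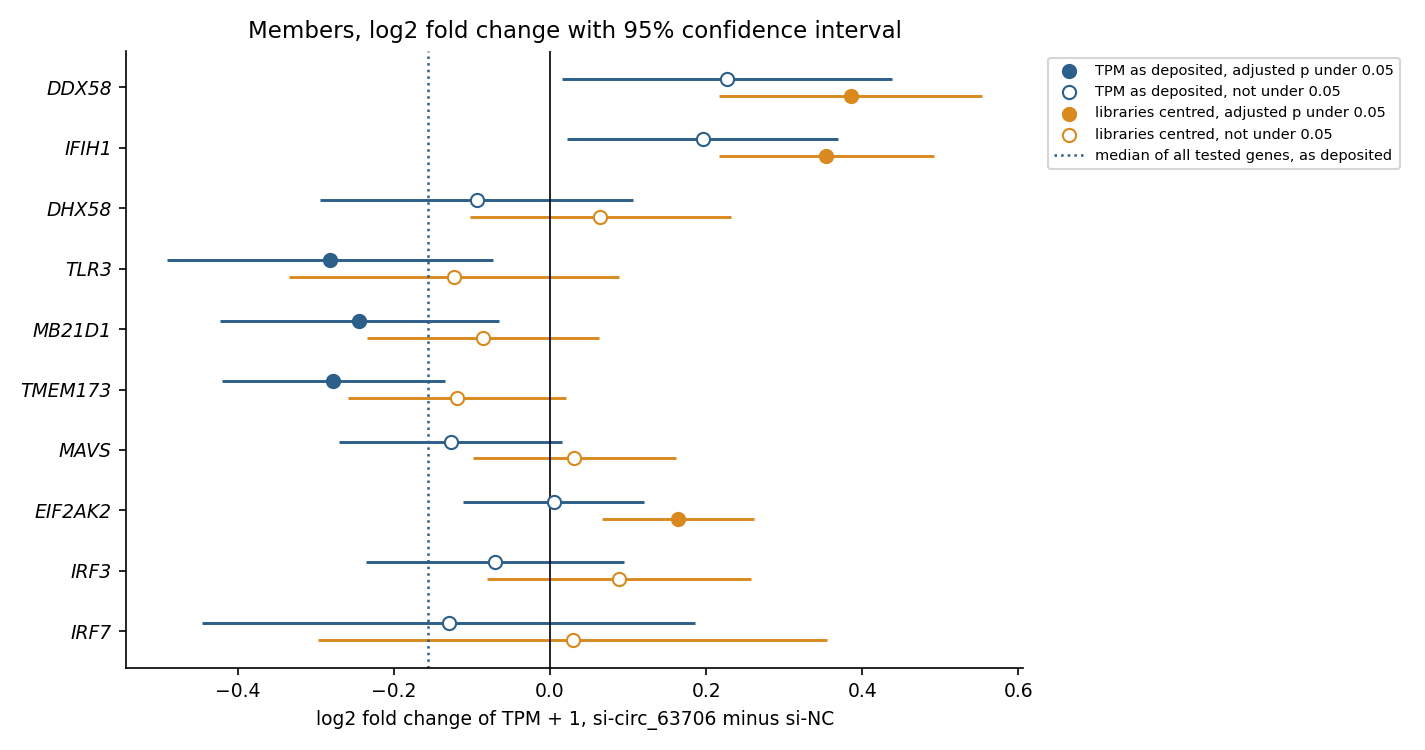
Log2 fold change of TPM + 1, si-circ_63706 minus si-NC, for each member with its 95% confidence interval, as deposited (blue) and with centred libraries (orange). Filled points have an adjusted p under 0.05 and the dotted line is the median of all tested genes as deposited, -0.16. Filled blue points are the lower TLR3, MB21D1 and TMEM173, and filled orange points the higher DDX58, IFIH1 and EIF2AK2.

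TPM is a value per length, so levels can be set side by side. With si-NC the order was IRF3, EIF2AK2, DDX58, IFIH1, MB21D1, TMEM173, MAVS, DHX58, IRF7 and TLR3, and only DHX58 and IRF7 had overlapping ranges among neighbours. With si-circ_63706, MAVS and TMEM173 changed places, and the ranges of EIF2AK2 and DDX58 overlapped as well as those of DHX58 and IRF7. DDX58 thus came level with EIF2AK2, at 0.851 to 1.00 of its TPM against 0.794 to 0.815 in the controls.

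Markers of immune cells and of the line itself were looked at. Of 12 immune cell markers, 11 had at most 0.75 TPM in any library and CD68 had 24.67 to 32.80 TPM, with values that overlapped between the groups. Of the line's own markers, those of neural progenitors were low, with at most 0.03 TPM of ATOH1 and 0.27 TPM of NES, while VIM had 751 to 1075 TPM. In a bulk library, fewer cells that express a gene and less of its RNA per cell cannot be told apart.

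Other sensors were followed through a list of 31 genes, of which 26 were tested. As deposited 2 were called higher and 7 lower (median -0.05), and after centring 8 were higher and 3 lower (median 0.11). As deposited this was 7.69% higher and 26.9% lower, against 4.16% and 35.4% of all tested genes. After centring it was 30.8% and 11.5%, against 13.1% and 13.7%. The 2 that rose on both scales were IFIT1, which binds RNA lacking a self cap, and IFI16, a nuclear DNA sensor, the latter named here after its values had been seen. IFIT1 had 14.15 and 14.19 TPM in the controls and 16.68, 20.35 and 20.92 TPM after si-circ_63706 (log2 fold change 0.41, adjusted p = 0.0171, limma). IFI16 had 25.28 and 24.66 TPM against 31.82, 32.73 and 32.09 TPM (0.35, adjusted p = 0.00243). In contrast to DDX58 and IFIH1, IFI16 was as high in si-circ_63706 replicate 1 as in the other libraries.

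The genes of this list that fell most were PRKDC, the catalytic subunit of the DNA-dependent protein kinase, with 26.69 and 27.17 against 20.09, 19.00 and 19.42 TPM (log2 fold change -0.45), OASL, an enhancer of RIG-I signalling, with 23.06 and 22.48 against 14.32, 17.09 and 18.33 TPM (-0.44), and NLRP1, an inflammasome sensor, with 20.25 and 18.59 against 13.30, 14.33 and 15.38 TPM (-0.41). These 3 were lower after centring too. The endosomal receptors TLR7, TLR8 and TLR9 had at most 0.03 TPM and the Z-nucleic acid sensor ZBP1 at most 0.14 TPM, so TLR3 was the endosomal nucleic acid receptor with measurable RNA among those listed. The cytosolic DNA sensor AIM2 had 3.69 and 4.30 TPM in the controls and 3.36, 3.65 and 3.72 TPM after si-circ_63706, overlapping.

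Between the sensors and the IRFs stand kinases and adaptors, 27 genes in the list with 25 tested. As deposited 0 were called higher and 8 lower (median -0.11), and after centring 3 were higher and 3 lower (median 0.05). The lower genes were 32% of those tested as deposited, against 35.4% of all tested genes. After centring they were 12%, against 13.7%. FADD, a death-domain adaptor, had 12.30 and 11.31 TPM in the controls and 7.33, 8.43 and 8.03 TPM after si-circ_63706 (log2 fold change -0.52, adjusted p = 0.00337, limma). IKBKG, which encodes NEMO, had 5.61 and 5.95 against 3.91, 3.91 and 4.17 TPM (-0.44), TRADD 1.87 and 1.93 against 1.08, 1.01 and 1.48 TPM (-0.41), and TOMM70, the mitochondrial receptor that ties MAVS to its kinases, 24.77 and 24.79 against 18.85, 18.93 and 19.47 TPM (-0.36). FADD, IKBKG and TOMM70 were the 3 called lower on both scales.

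Among 59 genes that tune the sensors, 56 were tested. As deposited 0 were higher and 25 lower (median -0.18), and after centring 6 were higher and 9 lower (median -0.02). The lower genes were 44.6% of those tested as deposited, against 35.4% of all tested genes. After centring they were 16.1%, against 13.7%. The 4 with the largest changes all fell. TREX1, the exonuclease that degrades cytosolic DNA before cGAS meets it, had 5.51 and 5.25 TPM in the controls and 2.77, 3.57 and 3.59 TPM after si-circ_63706 (log2 fold change -0.57, adjusted p = 0.00701, limma). TKFC, an inhibitor of MDA5, had 8.54 and 8.85 against 5.42, 5.31 and 5.86 TPM (-0.57). RNASEH2C, a subunit of the enzyme that removes RNA from RNA-DNA hybrids, had 22.33 and 19.55 against 13.07, 14.52 and 15.48 TPM (-0.51), and ATG12, an autophagy protein, 15.98 and 15.50 against 10.55, 11.59 and 10.71 TPM (-0.49). Each of these 4 was also called lower after centring, with log2 fold changes of -0.41, -0.41, -0.36 and -0.33.

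What the sensors lead to is interferon. The 24 genes of the interferon system include 5 interferon genes listed at 0 in every library, IFNB1, IFNA1, IFNA2, IFNA13 and IFNE, so no fold can be given for them. IFNL2 had at most 0.03 and IFNL3 at most 0.07 TPM. IFNL1 was below the minimum for testing, with 0.25 and 0.22 TPM against 0.46, 0.66 and 1.00 TPM. Of the 11 genes tested, 1 was called higher and 6 lower as deposited (median -0.17), and 2 were higher and 1 lower after centring (median -0.01). The lower genes were 54.5% as deposited, against 35.4% of all tested genes, and 9.09% after centring, against 13.7%.

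IRF9, the DNA-binding subunit of ISGF3, was the gene that rose. It had 9.95 and 8.97 TPM in the controls and 14.69, 16.31 and 17.66 TPM after si-circ_63706, 171% of the control, with a log2 fold change of 0.72 (adjusted p = 0.00225, limma) as deposited and 0.88 after centring. The receptor chain IFNAR1 had 8.11 and 8.09 against 5.89, 6.48 and 6.45 TPM (-0.32), IL10RB, a chain of the type III interferon receptor, 5.93 and 5.89 against 4.83, 4.49 and 4.50 TPM (-0.30), and IRF2, a repressor of interferon-induced genes, 2.81 and 3.43 against 1.90, 2.35 and 2.33 TPM (-0.37). Of these 3, IFNAR1 alone was also called after centring (-0.17, adjusted p = 0.0493).

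Downstream of PKR lies the initiation factor eIF2. Of 16 eIF2 kinases and factors, all tested, 0 were higher and 3 lower as deposited (median -0.12), and 2 were higher and 1 lower after centring (median 0.04). The lower genes were 18.75% as deposited, against 35.4% of all tested genes, and 6.25% after centring, against 13.7%. PPP1R15B, a subunit of the phosphatase that reverses PKR's mark on eIF2, had 10.64 and 10.92 TPM in the controls and 8.01, 8.15 and 8.42 TPM after si-circ_63706 (log2 fold change -0.36, adjusted p = 0.00369, limma) and was lower on both scales. EIF2B3 (-0.28) and EIF2S3 (-0.18) passed as deposited alone. The other kinases EIF2AK1, EIF2AK3 and EIF2AK4, which respond to other stresses, had log2 fold changes of -0.22, -0.31 and -0.12, none past the test, against 0.01 for EIF2AK2.

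The 20 genes that IRF3 or ISGF3 are known to switch on were all tested, and 4 of them, IFIT1, OAS1, OASL and DDX60, are also among the other sensors. As deposited 6 were called higher and 2 lower, with a median log2 fold change of 0.17, and after centring 11 were higher and 1 lower, with a median of 0.33. As deposited, the calls numbered 2 and 1 without si-NC replicates 1 and 2, and 14, 4 and 5 without si-circ_63706 replicates 1, 2 and 3. MX2 had 4.63 and 4.02 TPM in the controls and 5.95, 7.34 and 7.42 TPM after si-circ_63706 (0.57, adjusted p = 0.00775, limma). CXCL10, a chemokine, had 0.91 and 1.14 against 1.55, 1.90 and 2.13 TPM (0.50), IFI44L 3.47 and 3.55 against 4.12, 6.43 and 5.55 TPM (0.48), and IFI6 5.99 and 6.65 against 7.22, 10.11 and 10.62 TPM (0.48). In each of these 4, as in DDX58, IFIH1 and IFIT1, si-circ_63706 replicate 1 had the lowest value of its group. The 2 that fell as deposited were OASL and HERC5, the ligase that attaches ISG15. HERC5 had 7.40 and 8.08 against 5.84, 6.20 and 6.33 TPM (-0.29, adjusted p = 0.0131, limma). After centring OASL was called lower (-0.28, adjusted p = 0.0438) and HERC5 was not (-0.14, adjusted p = 0.103). MX2, CXCL10, IFI44L and IFI6 were called higher after centring too, at 0.73, 0.65, 0.64 and 0.64. The list thus held genes past the test in both directions, but more of them higher. As deposited 30% were higher and 10% lower, against 4.16% and 35.4% of all tested genes. After centring the shares were 55% and 5%, against 13.1% and 13.7%. The list was written with earlier results of these data known. DDX58 and IFIH1 lay near the median of the list after centring.

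**Figure D4:**
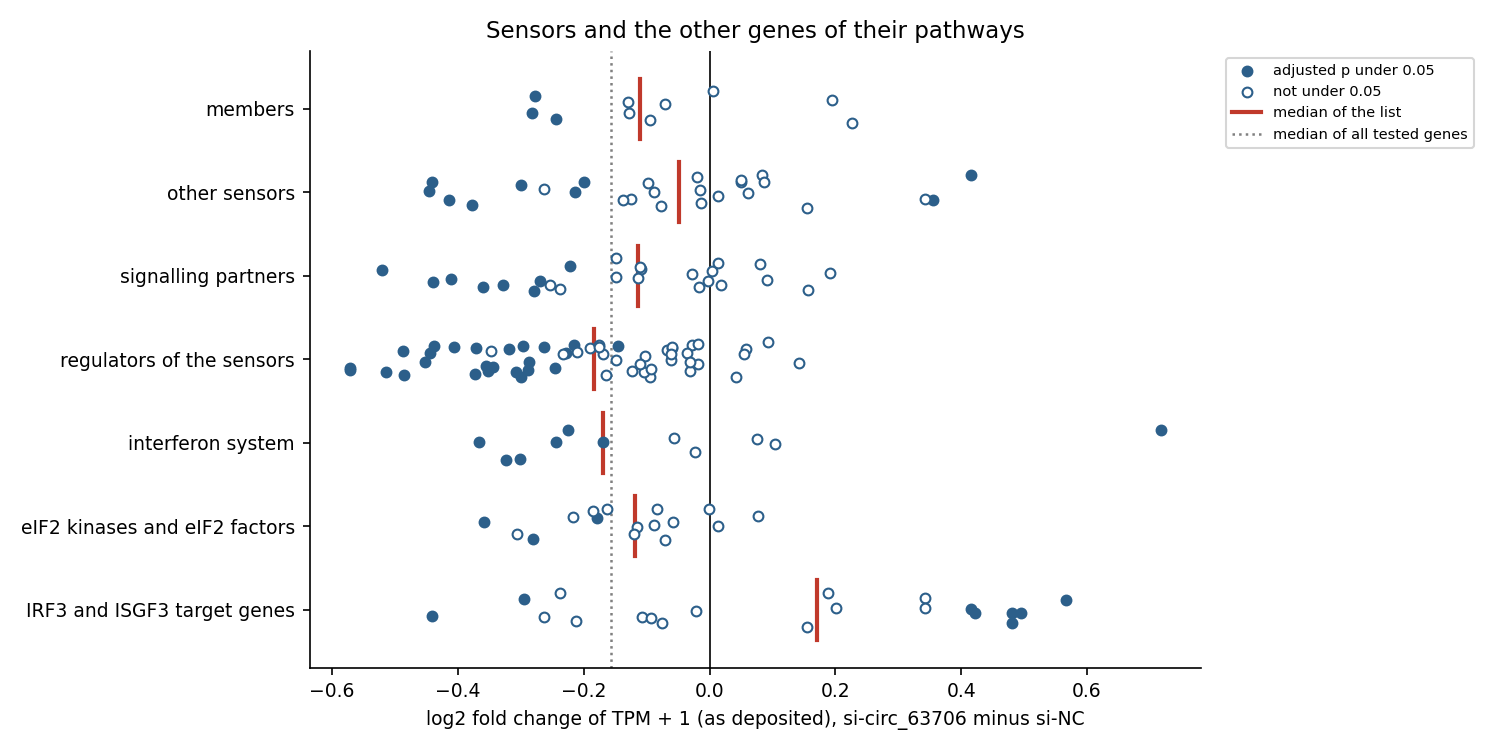
Log2 fold change of TPM + 1 as deposited, si-circ_63706 minus si-NC, for the members and each list of pathway genes. Each point is a tested gene (filled where the adjusted p is under 0.05), red bars are list medians and the dotted line is the median of all tested genes, -0.16. Medians range from -0.18 for the regulators of the sensors to 0.17 for the IRF3 and ISGF3 target genes, and the point farthest to the right among the interferon system is IRF9, at 0.72.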

How the data were processed

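Total RNA of 5 DAOY libraries was sequenced. Per the labels, the submitters' processing notes name cutadapt 2.3, STAR 2.7.0d, RSEM 1.3.1 and the build hg38, without roles or order. The annotation and strand setting are not given in the sources used here. The authors deposited TPM per gene with 2 decimals, which carries no read counts. Members and lists were chosen with earlier results of these data known, and lists were written from general knowledge.

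Genes averaging at least 1 TPM were tested with limma 3.58.1 in R 4.3.3 on log2(TPM + 1), si-circ_63706 (n = 3) against si-NC (n = 2), two-sided, with moderation along the mean-variance trend and p-values adjusted by Benjamini-Hochberg (threshold 0.05). Centring subtracted each library's median log2 ratio, taken over genes averaging at least 10 TPM. The alternatives were this centring, pseudocount 0.1, no minimum or a minimum of 5 TPM, no trend, quantile normalization, protein-coding genes alone, a replicate block and leaving out each library. Named are all members, up to 4 genes per list with the largest called change and no overlap, arm-defining genes at or near 0, and overlapping opposite-strand genes. IFI16, HERC5, AIM2, IFNL1 to IFNL3 and the kinases EIF2AK1, EIF2AK3 and EIF2AK4 lie outside this rule and were named after their values had been seen. Positions came from GENCODE 29 (GRCh38) and promoters from RefSeq. Python 3.11.15, pandas 2.3.3, numpy 2.4.6 and matplotlib 3.10.9 were used.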

Additional observations from a re-analysis of the deposited data

How the results depend on the processing

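Group sizes of 2 and 3, the scale of TPM and the unknown depth limit these results. The number of members called was 3 as reported and 3 after centring, 3 with quantile normalization and 3 with protein-coding genes alone, but those were DDX58, IFIH1 and EIF2AK2, higher, and not the 3 lower genes called as deposited. It was 1 without a minimum TPM and 1 to 3 without 1 si-circ_63706 library. That range does not cover the fits without si-NC replicate 1 or 2, which leave 1 control. Log2 fold changes there were 0.21 and 0.24 for DDX58, 0.22 and 0.17 for IFIH1 and -0.24 and -0.31 for TMEM173. With a minimum of 5 TPM, 0 of the 4 members tested were called. TLR3, MB21D1 and TMEM173 fell under that minimum, so their calls could not recur there. The leave-out fits hold fewer samples and the minimum changes the genes tested, and other causes were not tested.

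Genes called among the other sensors (9), signalling partners (8), regulators (25), interferon system (7), eIF2 factors (3), IRF3 and ISGF3 targets (8) and all genes (5033) were, in that order, 11, 6, 15, 3, 3, 12 and 3408 after centring. With quantile normalization they were 10, 7, 13, 2, 3, 10 and 3266, with protein-coding genes alone 12, 8, 20, 3, 3, 12 and 3949, and without a minimum TPM 6, 3, 15, 3, 1, 1 and 2889. With a minimum of 5 TPM, 6 signalling partners and 5 eIF2 factors were called. Without 1 library the counts ranged from 4 to 9, 3 to 7, 11 to 24, 1 to 4, 2 to 3, 1 to 14 and 2072 to 4645. Without si-NC replicate 1 or 2 the other sensors had 4 and 5 calls, the partners 4 and 3, the regulators 11 and 12 and the interferon system 2 and 1. Without si-circ_63706 replicates 1, 2 and 3 the interferon system had 3, 4 and 3, and without replicate 2 the other sensors had 6 and the partners 4.

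Signs turned for members that passed no test as deposited. After centring the log2 fold changes of DHX58, MAVS, IRF3 and IRF7 were 0.065, 0.031, 0.088 and 0.029, and with quantile normalization 0.060, 0.038, 0.11 and 0.024. With protein-coding genes alone DHX58 and IRF3 were at 0.022 and 0.079. Without 1 library in turn, EIF2AK2 lay between -0.030 and 0.040, IRF3 between -0.17 and 0.025 and IRF7 between -0.31 and 0.052. A pseudocount of 0.1 and moderation without a trend left 3 members called.

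Whether the replicate numbers pair the libraries is not given in the sources used here. The deviations of same-numbered libraries had correlations of 0.0144 and 0.0264. With 2 controls, whose deviations mirror each other, these values cannot decide it. With the replicate block, 0 members, 4 genes of the interferon system and 3885 genes in all were called, and EIF2AK2 was at -0.0016.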

Other observations

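Across all tested genes with a RefSeq promoter, 393 held the core GAAANNGAAA within the same window, and 9245 did not. Of the former, 17.3% were called higher and 11.7% lower after centring, with a median log2 fold change of 0.03. Of the latter, 13.1% were higher and 14.7% lower, with a median of -0.00. As deposited the medians were -0.13 and -0.16. These shares describe the 2 sets of genes, and the difference between them was not tested.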
